A study of Mus musculus with 4 samples.

Results

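The myelin genes Mbp, Mobp, Mal, Cnp, Mag, Mog, Cldn11, Opalin and Ermn, were followed, 9 in all, in single cells of the mouse brain after transient middle cerebral artery occlusion (tMCAO). They were taken by symbol from the 31053 genes of the count tables, and all 9 were found once. Each was measured in oligodendrocytes and in the cell classes that should lack it. A cell was called an oligodendrocyte when at least 4 of Mog, Mag, Ermn, Opalin and Cldn11 had a unique molecular identifier (UMI, a tag on 1 captured RNA molecule), which held for 5393 of 44360 kept cells. Detection of these 5 genes chose the cells, so their own levels there are descriptions, and the cells were also chosen from 4 oligodendrocyte genes outside the 9.

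The libraries came from the ipsilateral hemisphere of male mice aged 8 weeks, 1 library after sham surgery and 1 from each of day 1, day 3 and day 7 of tMCAO, a filament model of stroke with reperfusion. The mice were C57/BL6 with no engineered allele named, and sham mice had the same surgery without the occlusion. The series text places the sham sample at day 7, whereas a drawing of the study places it at day 0. Cells were freed with papain, and debris of myelin was removed on a Percoll gradient before loading. Each group was 1 library, the number of animals in a library was not given in the sources used here, and no test between groups was possible. Intervals given are exact at 95% and hold only counting error, and every day was compared with the same sham library.

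Myelin is the membrane that oligodendrocytes wrap around axons. Mbp binds the cytoplasmic faces of the membrane together, Mobp is a smaller basic protein of the same compact layers, and the mRNAs of both are carried out into the processes and translated there. Mal is a proteolipid that sorts membrane cargo, and Cnp is an enzyme of the cytoplasmic channels of the sheath. Mag lies on the face next to the axon, Mog on the outermost surface, Cldn11 forms the tight junctions between the wraps, Opalin is a glycoprotein of mature oligodendrocytes, and Ermn binds actin. Free RNA in the cell suspension enters droplets together with cells, so that abundant oligodendrocyte RNA also appears under the barcodes of other cells.

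Promoter sequences of RefSeq (GRCm38.p6, 250 bases before to 50 after the start) were found for 8 of the 9, and Mbp is named only. The 5 shown belong to the genes on which the results turn: Opalin and Mog (lowest against sham), Cldn11 (highest against sham), Mal (present in endothelial cells) and Mobp (abundant outside oligodendrocytes relative to Mog and Mag). Capitals mark ACAAAG or its reverse complement CTTTGT, the core recognised by SOX factors such as Sox10, searched on both strands. The windows are chr19:41077064-41077363 (minus strand) for Opalin, chr17:37023349-37023648 (minus) for Mog, chr3:31149670-31149969 (plus) for Cldn11, chr2:127656646-127656945 (minus) for Mal and chr9:120149492-120149791 (plus) for Mobp.
Opalin: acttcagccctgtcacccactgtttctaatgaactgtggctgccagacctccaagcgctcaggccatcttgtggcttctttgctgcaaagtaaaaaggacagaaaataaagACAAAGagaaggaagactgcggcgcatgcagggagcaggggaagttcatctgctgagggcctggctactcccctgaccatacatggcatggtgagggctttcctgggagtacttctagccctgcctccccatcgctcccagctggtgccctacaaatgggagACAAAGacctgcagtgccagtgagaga
Mog: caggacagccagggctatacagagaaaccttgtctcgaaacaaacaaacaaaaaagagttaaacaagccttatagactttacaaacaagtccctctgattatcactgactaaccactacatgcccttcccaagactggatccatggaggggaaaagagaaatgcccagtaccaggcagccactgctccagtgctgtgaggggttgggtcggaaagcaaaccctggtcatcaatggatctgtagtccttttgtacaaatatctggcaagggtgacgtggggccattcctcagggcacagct
Cldn11: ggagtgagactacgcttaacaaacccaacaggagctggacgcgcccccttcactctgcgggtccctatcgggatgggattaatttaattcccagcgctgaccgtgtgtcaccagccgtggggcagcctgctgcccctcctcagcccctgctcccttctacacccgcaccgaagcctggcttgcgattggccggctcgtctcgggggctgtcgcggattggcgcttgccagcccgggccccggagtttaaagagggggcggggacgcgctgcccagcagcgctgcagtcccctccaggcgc
Mal: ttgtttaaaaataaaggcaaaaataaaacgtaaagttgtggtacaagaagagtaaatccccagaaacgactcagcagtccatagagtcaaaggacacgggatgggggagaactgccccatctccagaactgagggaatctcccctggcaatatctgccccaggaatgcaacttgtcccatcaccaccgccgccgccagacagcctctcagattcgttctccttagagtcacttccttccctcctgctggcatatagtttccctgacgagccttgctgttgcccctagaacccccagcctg
Mobp: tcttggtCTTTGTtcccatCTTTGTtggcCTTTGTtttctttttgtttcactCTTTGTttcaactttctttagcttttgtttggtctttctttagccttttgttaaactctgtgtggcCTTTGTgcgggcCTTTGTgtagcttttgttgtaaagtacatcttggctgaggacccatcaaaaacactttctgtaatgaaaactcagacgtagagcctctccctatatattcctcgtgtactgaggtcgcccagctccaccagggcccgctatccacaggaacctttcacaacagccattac
The Mobp window held 6 matches, the most of any of 27025 genes, and Opalin held 2. Matches were present in the first listed window of 4 of the 8 members, against 18.7% of all genes. Mog, Cldn11, Mal and Ermn had no match, which says only that these letters are not in these windows, and the motif was chosen after the repeats in Mobp were seen.

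In GRCm38 coordinates of the GENCODE vM21 annotation all 9 are protein-coding genes. Mbp (ENSMUSG00000041607) lies at chr18:82475146-82585637, Mobp (ENSMUSG00000032517) at chr9:120149707-120181484, Mal (ENSMUSG00000027375) at chr2:127633226-127656695 and Cnp (ENSMUSG00000006782) at chr11:100574904-100591729. Mag (ENSMUSG00000036634) lies at chr7:30899176-30914873, Mog (ENSMUSG00000076439) at chr17:37010743-37023398, Cldn11 (ENSMUSG00000037625) at chr3:31149920-31164324, Opalin (ENSMUSG00000050121) at chr19:41061710-41077113 and Ermn (ENSMUSG00000026830) at chr2:58045113-58052864. Cnp overlaps Dnajc7 and Ermn overlaps Galnt5 on the opposite strand, and no member overlaps another gene of the tables on its own strand.

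The called cells carried the markers of their label. Summed over Ugt8a, Aspa, Hapln2 and Tspan2, 4 oligodendrocyte genes that this rule did not use, oligodendrocytes held 2822, 3367, 3008 and 3473 CPM (UMIs per 1000000 UMIs of the summed cells) in sham and on day 1, 3 and 7, against 30.2 to 51.9 CPM in endothelial cells. A rule of at least 3 of these 4 genes took 735, 2320, 871 and 1179 cells, of which 98.0% to 99.2% were also called by the rule above, and it took 95.4%, 95.4%, 89.3% and 92.0% of the cells of that rule. There were 764 oligodendrocytes in sham (10.1% of kept cells, interval 9.43% to 10.8%), 2408 on day 1 (18.0%), 965 on day 3 (10.3%) and 1256 on day 7 (8.94%), with a median of 7916, 4988, 6502 and 6285.5 UMIs. Of the 5 rule genes, 3 were found in 31, 35, 68 and 105 cells, 4 in 37, 602, 127 and 204 and all 5 in 727, 1806, 838 and 1052. These counts use the genes that made the call. Called cells with only 4 of the 5 were 37 of 764 in sham and 602 of 2408 on day 1.

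Markers of other cells moved with the groups. The 5 endothelial markers summed to 153 CPM in sham oligodendrocytes and to 614, 764 and 423 CPM on day 1, 3 and 7, and 5 smooth muscle markers to 61.1, 312, 730 and 505 CPM. All 5 genes of both lists had UMIs in all libraries. Erythrocyte genes, chiefly haemoglobin, summed to 4121, 286, 2511 and 843 CPM, 5 neutrophil markers to 2.28, 9.73, 383 and 2.83 CPM and 5 neuron markers to 107, 446, 121 and 157 CPM. Oligodendrocytes that also met a second class made up 6.02%, 15.03%, 19.2% and 14.2%. The ratio of each member to sham without these cells is given beside its ratio, and the part of the other markers in the levels was not tested. The limit of 3000 genes per cell, taken from the study, removed 51.1% of the sham oligodendrocytes found under a limit of 6000 genes, but 22.1%, 28.4% and 39.0% of those on day 1, 3 and 7.

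The 9 genes were among the most abundant of the cell. Their sum was 34241 CPM in sham (34090 to 34394), 29418 CPM on day 1, 30831 CPM on day 3 and 32404 CPM on day 7. The ratio to sham was 0.859 on day 1 (interval 0.854 to 0.864), 0.900 on day 3 (interval 0.895 to 0.906) and 0.946 on day 7 (interval 0.941 to 0.952). The sum was thus below sham on every day, and the genes within it went in different directions. UMIs count molecules by the 3′ end, so that gene length does not enter levels of different genes.

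Opalin stood lowest against sham. Its level was 1591 CPM in sham (1558 to 1624), 774 CPM on day 1 (759 to 790), 1051 CPM on day 3 (1025 to 1077) and 820 CPM on day 7 (799 to 841). The 3 days lay below sham with intervals that did not overlap it, at 0.487, 0.661 and 0.515 of the sham level. After each cell was thinned to 1000 UMIs, 74.7% of sham oligodendrocytes held Opalin (71.4% to 77.7%), against 43.5%, 59.8% and 49.1%. In cells chosen from the other 4 rule genes, 5.58% had no Opalin UMI at any depth in sham and 24.4%, 12.2% and 19.2% on the 3 days. The rule of 4 outside genes gave ratios of 0.484, 0.691 and 0.516, and leaving out oligodendrocytes of a second class 0.508, 0.708 and 0.530, so that day 3 was not past 1.5-fold with either.

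Mog, the antigen of the outer surface, was also below sham. It held 2826 CPM in sham, 1963 CPM on day 1, 2230 CPM on day 3 and 1749 CPM on day 7, or 0.695 (0.681 to 0.709), 0.789 (0.771 to 0.807) and 0.619 (0.605 to 0.633) of sham. In cells chosen without Mog its level was 2806, 1956, 2184 and 1726 CPM. Without a second class the ratios were 0.726, 0.844 and 0.634, and with up to 6000 genes per cell 0.640, 0.659 and 0.593. Day 7 was the lowest for Mog in all 12 alternatives, whereas for Opalin day 1 was the lowest in 8 of 12 and day 7 in the other 4, which were all 5 rule genes, the rule on thinned cells, 6000 genes and 5% mitochondrial UMIs.

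Cldn11 went the other way. It measured 1904 CPM in sham (1868 to 1940), 2626 CPM on day 1 (2598 to 2654), 2710 CPM on day 3 (2669 to 2753) and 3151 CPM on day 7 (3111 to 3192). The ratios to sham were 1.38, 1.42 and 1.66, and the share of thinned cells with Cldn11 went from 82.2% in sham to 86.6%, 87.3% and 94.2%. All 3 days were above sham. Without a second class the ratios were 1.43, 1.52 and 1.69, so that day 3 was then past 1.5-fold. They were 1.29, 1.23 and 1.59 with up to 6000 genes per cell. Day 1 and day 3 lay close together, with intervals that did not meet, and day 3 was the lower of the pair in 3 of 12 alternatives.

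Of the members outside the rule, Cnp and Mbp were below sham on each day. Cnp held 5899, 4111, 5427 and 4337 CPM in sham and on day 1, 3 and 7, which is 0.697, 0.920 and 0.735 of sham. Mbp held 4717, 3915, 4245 and 4502 CPM, which is 0.830, 0.900 and 0.954 of sham. Mbp therefore lay closest to sham on day 7, where Cnp was still at 0.735 (0.724 to 0.747). Without a second class Cnp was at 0.724, 0.988 and 0.751 and Mbp at 0.863, 0.969 and 0.980. A limit of 6000 genes per cell moved both the other way on day 1 and day 3. Cnp was then at 0.635 and 0.788 and Mbp at 0.756 and 0.810.

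Mal, the most abundant member in every library, measured 9935 CPM in sham, 7733 CPM on day 1, 8064 CPM on day 3 and 10124 CPM on day 7. It was at 0.778 and 0.812 of sham on day 1 and day 3 and at 1.02 (1.01 to 1.03) on day 7. Mal ranked 6th or 7th among all genes of these cells by CPM. The day 7 value lay on the other side of sham under some settings, as it was 0.946 with up to 6000 genes per cell. Without a second class Mal was at 0.806, 0.872 and 1.04. On day 3 Mal was at 0.662 with up to 6000 genes per cell.

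Mobp had a pattern of its own, with 2302 CPM in sham, 2939 CPM on day 1, 2084 CPM on day 3 and 3057 CPM on day 7. It was above sham on day 1 (1.28, 1.252 to 1.303) and day 7 (1.33, 1.30 to 1.36), and below it on day 3 (0.905, 0.883 to 0.928). Without a second class the ratios were 1.34, 0.968 and 1.36. On day 1 and day 3 they were 1.10 and 0.749 with up to 6000 genes per cell. Mbp and Mobp, both basic proteins of compact myelin, thus differed in direction on day 1 and day 7.

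Mag and Ermn lay above sham on some days and below it on others. Mag measured 3424, 3754, 3481 and 2747 CPM, with ratios of 1.10, 1.02 (0.997 to 1.04) and 0.802 on day 1, 3 and 7. Ermn measured 1644, 1602, 1538 and 1918 CPM, with ratios of 0.974, 0.936 and 1.17. The direction of Ermn on day 1 and day 3 was not stable, since without oligodendrocytes of a second class the ratios were 1.02 on both days, and 1.20 on day 7. Those of Mag were then 1.14, 1.10 and 0.817. Under a limit of 6000 genes per cell Mag was at 1.03 on day 1 and 0.897 on day 3, and Ermn at 0.820 and 0.808. Mag and Mog sit on opposite faces of the sheath and had ratios to sham on day 1 of 1.10 and 0.695.

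**Figure D1:**
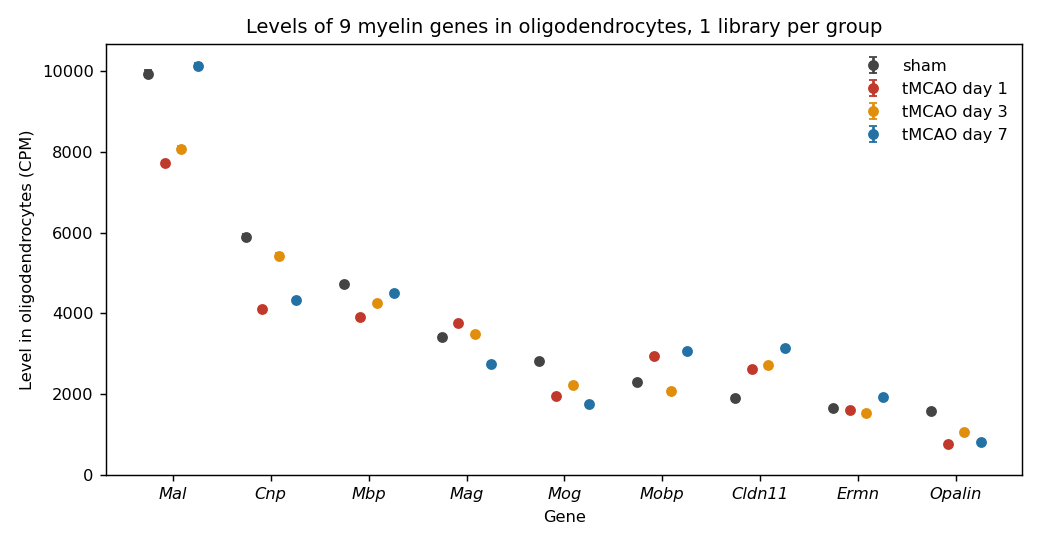
Levels of the 9 genes in oligodendrocytes (vertical axis, CPM of summed UMIs) in the 4 libraries (colours), with exact Poisson 95% intervals that are mostly smaller than the points. Opalin and Mog lie below sham on each day, Cldn11 lies above it, and Mal is the highest gene in each library.

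**Figure D2:**
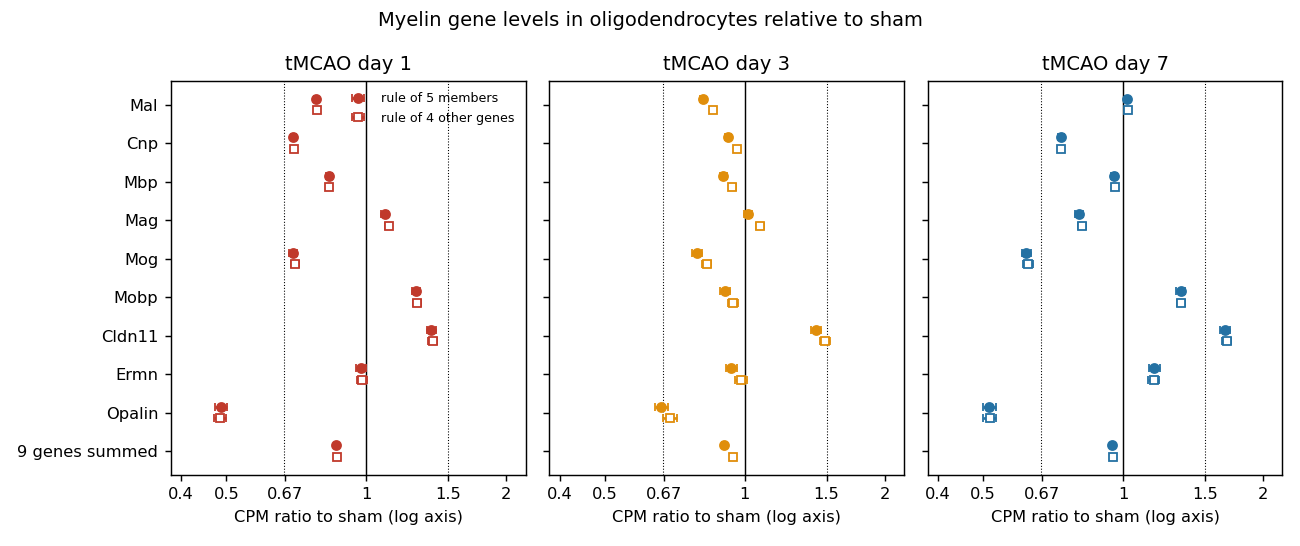
Ratio of the level on each day to that in sham (horizontal log axis) for each gene and for the 9 summed, with exact 95% intervals; filled circles use the rule of 5 members, open squares the rule of 4 oligodendrocyte genes outside the 9, and dotted lines mark 1.5-fold. Only Opalin (day 1, day 3 and day 7), Mog (day 7) and Cldn11 (day 7) lie past 1.5-fold with the first rule, and Opalin on day 3 is at 0.691 with the second.

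How many genes lay past 1.5-fold was counted over all genes with at least 50 CPM in 1 of the compared libraries. On day 1, 1 of the 9 members was lower by 1.5-fold (Opalin), where 8.42% of all 3137 genes were lower, and 0 were higher, where 7.43% of all genes were. On day 3 it was 1 member lower (Opalin), against 1.58% of 3172 genes, and 0 higher, against 5.14%. On day 7, 2 members were lower (Opalin and Mog), against 7.03% of 3369 genes, and 1 was higher (Cldn11), against 17.8%. Most members, like most of all genes, thus stayed within 1.5-fold of sham on each day, and a difference between them was not tested. With a fold of 5/4 in place of 1.5, 6, 3 and 5 members lay past it on day 1, 3 and 7, against 40.7%, 24.4% and 58.4% of all genes. With up to 6000 genes per cell the number of members past 1.5-fold was 3 on day 1 and 3 on day 3, and with the rule of outside genes 0 on day 3. Without oligodendrocytes of a second class Cldn11 took the place of Opalin on day 3. With the rule applied to thinned cells the number was 0 on day 3 and 2 on day 7, where Mog was at 0.695.

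Cell by cell, the 9 genes were only weakly related. Over cells thinned to 1000 UMIs, the median Pearson correlation of the 36 gene pairs was 0.06 in 754 sham cells, 0.12 in 2405 cells of day 1, 0.24 in 962 of day 3 and 0.08 in 1228 of day 7. The cells of a library share its preparation, detection of 5 of the 9 genes chose them, and the few UMIs per gene limit these values. They are therefore descriptions. Day 3 also had the largest share of oligodendrocytes that met a second class (19.2%), and its part in the values was not tested. Cnp with Mal was the highest pair in sham, on day 1 and on day 3 (0.20, 0.28 and 0.48).

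Other genes of the sheath were read from 3 lists. Over all genes tested the shares higher and lower by 1.5-fold were 7.43% and 8.42% on day 1, 5.14% and 1.58% on day 3, and 17.8% and 7.03% on day 7. Of 27 genes of the myelin membrane, junctions and cytoskeleton 26 were measured at 50 CPM, of which 2 were higher and 3 lower by 1.5-fold on day 1, 1 and 0 on day 3, and 3 and 6 on day 7. The median log2 ratio of this list was −0.24, −0.05 and −0.04 on the 3 days, against −0.04, 0.05 and 0.02 over all genes tested. On day 7 Cryab, a small heat shock protein, was at 0.431 of sham (7951 to 3428 CPM) and Pllp at 0.5999, while on day 1 Cryab was at 0.478, Bcas1 at 0.603 and Pllp at 0.610. In the same list the septin-binding protein gene Anln was at 2.06 on day 7 (269 to 555 CPM), Tppp3 at 1.97 and the tetraspanin gene Tspan2 at 1.66. The tetraspanin gene Cd9 was at 1.65 on day 1 and 1.63 on day 3, but at 0.791 on day 7. Tspan2 is also a gene of the outside rule.

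Of 21 genes of lipid and sterol synthesis, 19 were measured on day 1, 17 on day 3 and 18 on day 7. On day 1, 3 were higher and 1 was lower, on day 3 none was in either direction, and on day 7, 0 were higher, where 17.8% of all genes were, and 4 lower, against 7.03%. Among those higher on day 1 were the cholesterol genes Hmgcs1 (1.60) and Idi1 (1.55), and the 1 lower was Dhcr7 (0.576), another cholesterol gene. Dhcr7 was at 67.6 CPM in sham, 38.9 on day 1, 51.3 on day 3 and 36.7 on day 7. It was thus measured on day 1 and day 7 only through its sham level. The 4 lower on day 7 were the glycolipid carrier gene Gltp (0.510), the cholesterol genes Dhcr7 (0.543) and Fdft1 (0.557), and Gal3st1 (0.607), whose enzyme makes sulfatide. A filter of a mean of at least 50 CPM over the 4 libraries, added after seeing the data, kept 16 genes and left out Dhcr7. Of these, 3 were higher and 0 lower on day 1, against 6.33% and 7.69% of all 3018 genes so filtered. On day 7, 0 were higher and 3 lower, against 14.7% and 7.06%. The median log2 ratio of the 16 was 0.13, −0.07 and −0.16 on the 3 days.

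Of 12 transcription factors of the lineage, 9, 9 and 11 were measured on the 3 days. On day 1, 3 were lower, where 8.42% of all genes were, and 0 higher, with Olig1 at 0.558 (1264 to 705 CPM), Olig2 at 0.623 and Zfp536 at 0.660. On day 7 Olig1 was at 0.742, but Olig2 at 1.21 and Zfp536 at 1.46. Without oligodendrocytes of a second class Zfp536 was not past 1.5-fold on day 1. On day 3 none lay past 1.5-fold, and on day 7, 2 were higher, Tcf7l2 at 2.25 (24.0 to 53.9 CPM) and Zeb2 at 1.71, and 0 lower, where 17.8% of all genes were higher. Tcf7l2 was measured only through its day 7 level, as was 1 gene within 1.5-fold (Nkx2-2). Over the 9 factors with a mean of at least 50 CPM, 1 was higher on day 7, against 14.7% of 3018 genes, and the median log2 ratio was −0.13, −0.04 and 0.28. Without oligodendrocytes that also met another class, which was planned for the 9 members and extended to the lists after seeing the data, the membrane list had 3 genes higher and 3 lower on day 1 and 3 and 4 on day 7, the lipid list 4 and 1 on day 1, and the transcription factors 0 and 2 on day 1 and 3 and 0 on day 7, with the other counts of the 3 lists as given.

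Likeness was measured across classes. Over 37 sums of a class and a library, the 10 genes with the highest Pearson correlation to the mean log2 level of the 9 (at least 0.957) included Tmem125, S1pr5, Hapln2, Plekhh1, Tmem88b, Anln, Fa2h, Gjb1 and Qdpr. Tmem125 was at 0.980, with 173 to 289 CPM in oligodendrocytes and at most 3.31 CPM in any other sum, whereas Qdpr reached 104 CPM outside oligodendrocytes. Among the 9, Opalin was at 0.984 and Mobp and Mbp at 0.982, whereas Cnp was at 0.920 and Mal lowest at 0.888. Each of the 9 is itself part of the mean of the 9, and detection of the rule genes, Opalin among them, chose the oligodendrocytes. High values for the 9 were thus partly built in, and they are descriptions.

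Outside oligodendrocytes most of the 9 lay near or below 1% of the oligodendrocyte level of the same library. In endothelial cells, the largest class with 25105 cells, the median over the 4 libraries was 1.06% for Cnp, 1.05% for Mbp, 0.948% for Mobp, 0.671% for Ermn, 0.536% for Opalin, 0.493% for Cldn11, 0.484% for Mog and 0.450% for Mag. Mal stood apart at 9.26%. Over 32 sums of 14 classes other than oligodendrocytes and their progenitors, the median level was lowest for Opalin (4.41 CPM) and Mog (6.27 CPM).

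**Figure D3:**
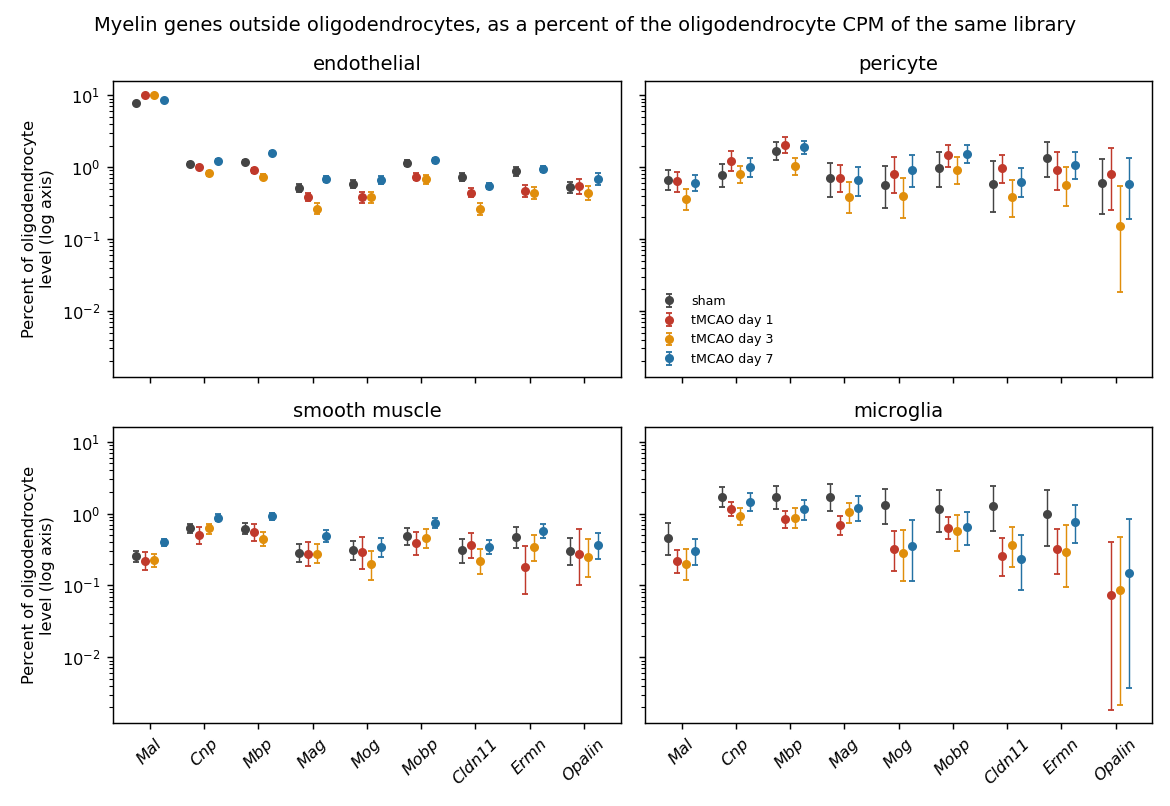
Level of each of the 9 genes in 4 other classes as a percent of the oligodendrocyte CPM of the same library (vertical log axis), with exact 95% intervals and 1 colour per library; Opalin in sham microglia had 0 UMIs and is not drawn. Mal in endothelial cells lies at 7.90% to 10.1%, while in the other 3 classes it is at or below 0.674%.

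Mal was measured at 785 CPM in endothelial cells of sham (771 to 799), 780 CPM on day 1 (767 to 794), 802 CPM on day 3 (788 to 816) and 869 CPM on day 7 (857 to 881). The intervals of sham, day 1 and day 3 overlapped, and day 7 lay above the other 3 libraries. In smooth muscle cells Mal was at 25.4, 17.1, 18.0 and 40.7 CPM and in pericytes at 66.9, 49.0, 28.8 and 61.5 CPM, so that the endothelial level was 30.9, 45.5, 44.5 and 21.4 times that of smooth muscle. Of endothelial cells thinned to 1000 UMIs 47.7%, 47.2%, 49.4% and 50.5% held Mal, against 2.94%, 2.09%, 1.98% and 3.89% of smooth muscle cells, whose median depth before thinning was 6946, 3829, 5847 and 5310 UMIs and that of endothelial cells 2935.5, 1862, 2203.5 and 2018. Before thinning the shares were 75.1%, 63.5%, 69.7% and 68.6% of endothelial cells.

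The other 8 genes behaved otherwise in the same endothelial cells. Their summed level was 219 CPM in sham (212 to 227), 144 CPM on day 1 (138 to 150), 126 CPM on day 3 (121 to 132) and 233 CPM on day 7 (227 to 240), or 0.902%, 0.664%, 0.555% and 1.05% of that in oligodendrocytes. Sham and day 7 were the high libraries, and the share of oligodendrocytes among kept cells was highest on day 1. After thinning 21.8%, 13.7%, 13.3% and 20.9% of endothelial cells held at least 1 of the 8 genes, against 20.5%, 20.5%, 13.8% and 25% of pericytes and 10.5%, 7.51%, 7.56% and 12.4% of smooth muscle cells. The share for the 8 genes lay above that of smooth muscle cells in each library and above that of pericytes in sham only, and the part of free RNA in it was not tested.

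The depth of a cell separated Mal from the other 8. Endothelial cells were split by their UMIs into 4 depth bins of equal size, with medians from 1049 to 6150 UMIs in sham. Mal was at 744, 836, 710 and 823 CPM in the 4 bins of sham, and went from 0.783 to 5.17 UMIs per cell. The 8 genes fell from 602 to 319, 195 and 136 CPM over the same bins, and went from 0.634 to 0.852 UMIs per cell. Between the shallowest and the deepest bin of day 1, day 3 and day 7, the 8 genes differed by 338 against 91.6 CPM, 264 against 81.5 CPM and 540 against 150 CPM, and Mal by 702 against 793, 660 against 842 and 771 against 906 CPM. The UMIs of the 8 genes per cell thus rose from bin to bin by less than 2-fold in all, while the Mal UMIs rose with the depth of the cell.

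**Figure D4:**
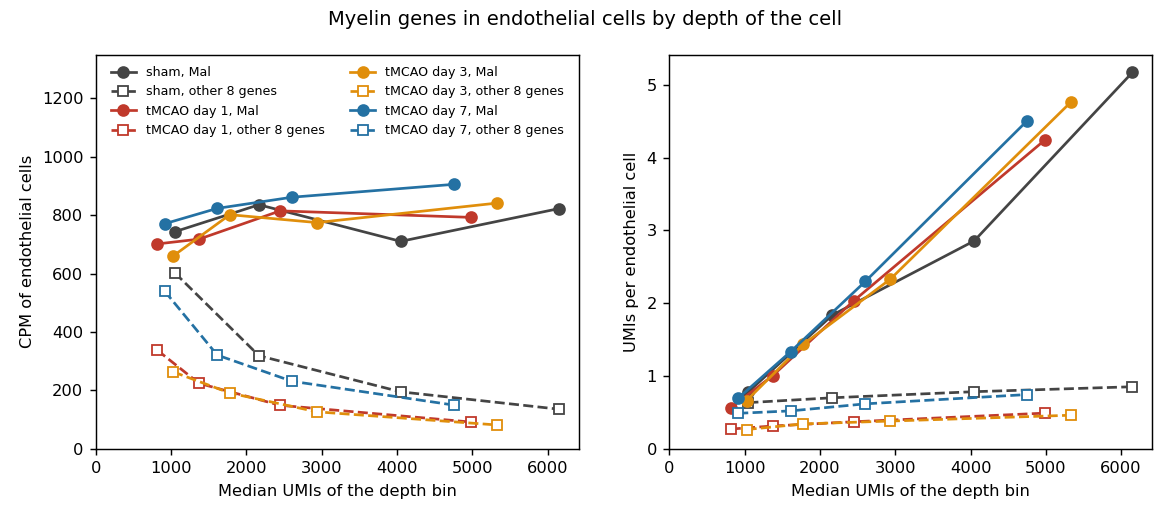
Mal (filled circles) and the other 8 genes summed (open squares) in 4 bins of endothelial cells by depth, plotted against the median UMIs of the bin; the left panel gives CPM and the right panel UMIs per cell, with 1 colour per library. The CPM of the 8 genes falls with depth in each library while their UMIs per cell rise (0.634 to 0.852 in sham), and Mal rises from 0.783 to 5.17 UMIs per cell in sham.

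The 8 genes were spread thinly over endothelial cells. In sham 50.3% of these cells had none, 33.2% had 1 UMI and 0.638% had 5 or more. Cells holding several of the rule genes had already been left out by the class margin. On day 1, 3 and 7, 72.2%, 72.2% and 60.4% had none. The 1% of cells with the most held 8.68% of the UMIs in sham and 12.5% to 14.5% in the other libraries, and the highest single cell had 51.

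Mal differed along the vascular tree. Endothelial cells were given a zone from 5 arterial, 5 capillary and 5 venous markers, a split added after the data were seen. Arterial cells held 1086, 1218, 1113 and 1147 CPM of Mal in sham and on day 1, 3 and 7, and capillary cells 729, 753, 783 and 769 CPM. Arterial cells were above capillary cells in all 4 libraries with intervals that did not overlap. Venous cells held 946 and 1195 CPM in sham and on day 7, but 619 and 572 CPM on day 1 and day 3, below capillary cells. The 8 genes were lower in arterial cells than in capillary cells (176 and 221 CPM in sham), and arterial cells were deeper, with a median of 3779 against 2978 UMIs.

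**Figure D5:**
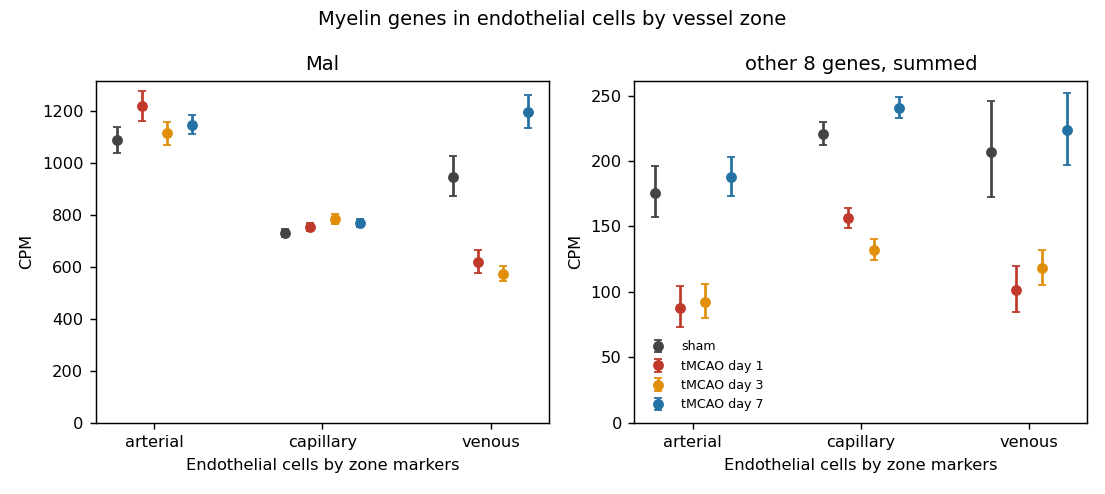
Level of Mal (left) and of the other 8 genes summed (right) in endothelial cells of 3 zones (vertical axes, CPM), with exact Poisson 95% intervals and 1 colour per library. Arterial cells hold 1086 to 1218 CPM of Mal and capillary cells 729 to 783 CPM, while venous cells range from 572 to 1195 CPM.

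Outside oligodendrocytes the genes did not keep the ratio they had in oligodendrocytes. Mbp was compared with Mog and Mag summed in endothelial, smooth muscle and microglial cells and pericytes of the 4 libraries. In endothelial cells there were 1.65, 1.61, 1.78 and 2.32 Mbp UMIs for each Mog or Mag UMI in sham and on day 1, 3 and 7, against 0.755, 0.685, 0.743 and 1.00 in oligodendrocytes, which is 2.19 (1.96 to 2.45), 2.34 (2.05 to 2.68), 2.39 (2.06 to 2.78) and 2.31 (2.11 to 2.53) times as many. Mobp stood at 2.12, 1.92, 2.18 and 1.82 times. Over the 16 sums Mbp was above its oligodendrocyte ratio in 16, with a median of 2.15 and with intervals above 1 in 13, and Mobp in 13, with a median of 1.77 and intervals above 1 in 10. Mog and Mag, unlike Mbp and Mobp, counted in the class margin, which can lower them outside oligodendrocytes and raise these ratios. The rule and margin of outside genes use none of these genes. With them Mbp was above in 16, with a median of 2.07 and intervals above 1 in 12. Mobp was above in 13, with a median of 1.70 and intervals above 1 in 10. Both are genes whose mRNA is carried into the sheath, and the part of that in the ratio was not tested.

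Microglia were the exception. The Mbp ratio there was 1.10, 1.49, 1.17 and 1.31 and the Mobp ratio 0.754, 1.13, 0.758 and 0.735 times that of oligodendrocytes, with intervals that included 1 but for Mbp on day 1 (1.01 to 2.18). Mag was at 58.8, 26.0, 36.1 and 33.0 CPM in microglia (22, 46, 40 and 27 UMIs), which was 3.34 (2.06 to 5.16), 1.79 (1.28 to 2.47), 3.91 (2.68 to 5.58) and 1.73 (1.12 to 2.55) times the endothelial level. Opalin had 0, 1, 1 and 1 UMIs in microglia, and the 0 in sham allows up to 8.01 CPM, or 0.504% of oligodendrocytes, by a limit of 3 counts and not the exact interval used elsewhere.

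Single members stood out in single classes. Cnp was at 403 CPM in oligodendrocyte progenitors of day 1 (206 UMIs), which express it before myelin is made, at 320 CPM in ependymal cells of day 1 (164 UMIs) and at 133, 191 and 186 CPM in astrocytes of sham, day 1 and day 3, against 65.4, 41.4 and 44.6 CPM in endothelial cells of these libraries. In T or NK cells of day 7 it was at 121 CPM, 2.29 times (1.69 to 3.04) the endothelial level. Cldn11 was at 265 CPM (198 to 346) in the 51 cells of day 1 that hold Prg4, Nov and Slc47a1, which is 22.8 times the endothelial level, and at 63.8 CPM in fibroblasts of day 1. The same 51 cells held 319 CPM of Mal (64 UMIs). Ermn was at 40.5 CPM in choroid plexus cells of day 7 on 15 UMIs, and at 10.7 and 7.83 CPM there in sham and on day 1.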

How the data were processed

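Single-cell RNA-seq of 4 libraries was analysed, 1 per group. The values deposited by the authors are raw UMI counts in called cells, made with Cell Ranger 4.0.0 per the file headers; the submitters' processing notes name Cell Ranger 3.0.1 and GRCh38, a human build, while the gene identifiers are mouse, and 30934 of 31053 matched GENCODE vM21. Deposited depth was 69392755 to 104023002 UMIs per library over 11744 to 17922 cells. The members and lists were chosen with earlier results of these data known.

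The filter (200 to 3000 genes, mitochondrial share up to 10%) left 44360 of 59429 cells. A cell outside the oligodendrocyte rule was put in the class of which it held UMIs of at least 60% of the markers, with 40 percentage points over each other class, which left 10.4% unnamed. The oligodendrocyte rule genes counted as another class in this margin. Classes of under 50 cells in a library were left out. UMIs were summed per class and library and given as CPM with exact Poisson intervals, ratios with exact conditional binomial intervals and shares with Clopper-Pearson intervals (95%). Shares were thinned to 1000 UMIs per cell. Zones needed 2 of 5 markers and more than any other zone. Named genes were the 9, the at most 4 furthest list genes per direction past 1.5-fold, and the 10 of 1291 genes with at least 100 CPM in oligodendrocytes of all libraries whose log2(CPM + 10) was most like the mean of the 9; some genes are not reported here. Doublets were scored with Scrublet (scanpy 1.11.5); its automatic threshold marked under 0.5% in 3 libraries, so a score of 0.25 was used (89, 366, 136 and 329 cells), and doublets were kept except in an alternative. Of 44172 distinct barcodes, 187 occurred in more than 1 library, and 3 barcodes were oligodendrocytes in both. On simulated oligodendrocyte counts of 2857 genes, 200 with 2-fold or 4-fold differences, the 1.5-fold count recovered 100.0%, 100.0% and 99.0% of them at the depth of day 1, 3 and 7. All these differences exceed 1.5-fold and only counting error was simulated, so a high recovery was built in. It holds no spread between animals. Python 3.11.15, numpy 2.4.6, scipy 1.17.1 and pandas 2.3.3 were used. Alternatives covered the oligodendrocyte rule, class margin, gene and mitochondrial limits, doublets, thinning, denominator, fold and filter.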

Additional observations from a re-analysis of the deposited data

Results flagged for a closer look

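Mag, Mobp, Mal and Ermn lay above sham on 1 day and below it on another, with intervals on either side of 1, and the difference between days was not tested. Mag was at 1.10 of sham on day 1 and at 0.802 on day 7. Mobp was at 1.28 on day 1, 0.905 on day 3 and 1.33 on day 7, and day 7 was above day 1 and day 1 above day 3 in each of the 11 alternatives that could change it. Mal was at 0.778 on day 1, 0.812 on day 3 and 1.02 on day 7, but day 7 was below sham with up to 6000 genes (0.946), at 5% mitochondrial UMIs (0.981) and at 4000 to 8000 UMIs (0.973). Ermn was at 0.974 on day 1, 0.936 on day 3 and 1.17 on day 7, but all 3 days were above sham with the rule on thinned cells (1.07 on day 1 and 1.06 on day 3) and without a second class (1.02 on both).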

How the results depend on the processing

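No paired analysis was possible because each group had 1 library, and for the same reason no library could be left out. The sum of the 9 genes stayed below sham on all 3 days under all alternatives run. On day 1, 3 and 7 it was 0.865, 0.873 and within the counting interval with at least 3 rule genes; 0.893, 0.935 and 0.960 with all 5; 0.818, 0.867 and 0.964 over the 4 members outside the rule; 0.906, 0.972 and 0.975 with the rule on cells thinned to 1000 UMIs; 0.893, 0.968 and 0.968 without oligodendrocytes of a second class; 0.793, 0.768 and 0.926 with up to 6000 genes per cell; and 0.852, 0.875 and 0.937 as a mean over cells. Without doublets it was 0.885 on day 1 and 0.958 on day 7, and with at most 5% mitochondrial UMIs 0.852 and 0.936. Settings added after the data were seen gave 0.864 on day 1 and 0.944 on day 3 (rule of 4 outside genes) and 0.826, 0.894 and 0.927 (cells of 4000 to 8000 UMIs). The cause of these shifts was not tested.

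The 1 member past 1.5-fold on day 3 (Opalin) was 0 with all 5 rule genes, with the rule on thinned cells, with the rule of outside genes and at 4000 to 8000 UMIs. Without a second class Opalin (0.708) was not past it and Cldn11 (1.52) was. On day 7 the 3 were 2 with the rule on thinned cells, without Mog (0.695). With up to 6000 genes there were 3 members on day 1 and 3 on day 3, and with a fold of 5/4 there were 6, 3 and 5 on day 1, 3 and 7. Both Ermn and Mal crossed 1. Ermn was at 1.07 on day 1 and 1.06 on day 3 with the rule on thinned cells, and at 1.02 on both without a second class. Mal on day 7 was at 0.946 with up to 6000 genes, 0.981 at 5% mitochondrial UMIs and 0.973 at 4000 to 8000 UMIs. The cause was not tested. Among single members 155 values stayed within the main counting interval, 150 moved beyond it in the same direction or from a ratio whose interval held 1, and these 7 crossed.

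In endothelial cells the median level of the 8 genes, 0.783% of oligodendrocytes, was 0.765% with 3 rule genes, 0.758% without doublets, 0.660% at 6000 genes, 0.700% at 5% mitochondrial UMIs, 1.15% as a mean over cells, 0.726% without cells of 2 or more rule genes, 0.865% with outside genes and 0.763% without a second class. Mal, 9.26%, was 9.43% (3 rule genes), 8.69% (all 5), 9.13% (doublets), 9.19% (mitochondrial limit), 9.12% (mean over cells), 9.05% (outside genes) and 8.75% (second class). The Mbp ratio, 2.33, was 2.50 at 6000 genes, 2.17 at a class margin of 20 points, 2.68 without cells of 2 or more rule genes and 2.10 with outside genes. The share of endothelial cells with 1 of the 8 genes, 17.3%, was 11.6% at 500 UMIs and 33.7% unthinned, and with Mal, 48.5%, 30.1% and 69.2%. Depth limits single values in small classes, where sums of under 20 UMIs have wide intervals, and 1 library per group leaves the spread between animals unknown.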
